A study of Homo sapiens with 4 samples.

Results

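Of the 10762 peaks of the RNA helicase DDX5 called over input DNA in BT549 breast cancer cells on chromosomes 1 to 22 and X, 2116 (19.7%) lay in 260 dense groups of 5 or more. To find them, peaks were sorted by start and joined wherever the gap between neighbours was 12.5 kb or less. This gave 6761 groups in all, of which 4979 held 1 peak each and serve below as single peaks. The members were thus chosen by measured values of the DDX5 ChIP over input, namely which peaks were called and where. The number, spacing, fold, pileup and width of those peaks are therefore a description and support nothing further.

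The data are chromatin immunoprecipitation followed by sequencing (ChIP-seq) from untreated BT549 cells, a human breast cancer line without oestrogen receptor alpha. The study sought the binding events that DDX5 and the transcription factor Fra-1 share and those that belong to either alone. Each of its 4 libraries stands alone: a DDX5 ChIP, a Fra-1 ChIP, a control ChIP with IgG of normal rabbits, and input DNA, the sonicated chromatin before any immunoprecipitation. The authors deposited a peak list for each antibody over each control. Besides the 10762 DDX5 peaks over input, these hold 61 DDX5 peaks over IgG, 30405 Fra-1 peaks over input and 16089 Fra-1 peaks over IgG on the same chromosomes. There are no replicates, so no difference was tested. Each interval beside a share is an exact 95% Clopper-Pearson interval; it takes in counting error alone, and neighbouring peaks of 1 library are not independent. The lists hold no expression, so the cell line was not checked against its markers, and absolute sequencing depths are unknown.

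DDX5 is a DEAD-box protein that unwinds RNA. It takes part in splicing and in the processing of microRNA precursors, and it acts as a coactivator for several transcription factors. Fra-1, the product of FOSL1, is a Fos-family subunit of AP-1. It binds DNA as a dimer with a Jun protein, typically at the motif TGANTCA, and is abundant in breast cancers that lack the oestrogen receptor. A chromatin preparation also yields some DNA without any specific antibody, more so at open and highly transcribed genes, which is what the IgG and input libraries record.

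Positions of peaks are in hg19, the build of the deposited lists. Gene names beside a group come from general knowledge of the hg19 map and are background, since no hg19 annotation was used. All 53 symbols looked up were found on the same chromosome in RefSeq (GRCh38.p14). The first sequences shown are of microRNAs whose host transcript, MIRLET7BHG, lies at a group of 38 DDX5 peaks. Whether any of these peaks covers a microRNA gene was not checked, for lack of an hg19 annotation. DDX5 is known to act on microRNA precursors, which is why let-7a-3 and let-7b are shown. RefSeq lists their mature forms as follows, with the seed (bases 2 to 8) in capitals:
hsa-let-7a-5p: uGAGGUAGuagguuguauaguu
hsa-let-7b-5p: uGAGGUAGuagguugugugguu
Both share the seed GAGGUAG and differ at 2 positions outside it.

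The next sequences are the 250 bases before the annotated start of JUNB, IRF1 and ZFP36. They are shown because each gene lies at a dense group with a DDX5 peak that was also called over IgG. RefSeq places them in GRCh38.p14 at chr19:12791236-12791485 on the plus strand (JUNB), chr5:132490774-132491023 on the minus strand (IRF1) and chr19:39406597-39406846 on the plus strand (ZFP36). They were not placed on the peaks, since the builds differ. Capitals mark matches, on either strand, to the AP-1 motif TGANTCA, the GC box GGGCGG and the TATA box TATAAA; no marked matches overlap.
JUNB: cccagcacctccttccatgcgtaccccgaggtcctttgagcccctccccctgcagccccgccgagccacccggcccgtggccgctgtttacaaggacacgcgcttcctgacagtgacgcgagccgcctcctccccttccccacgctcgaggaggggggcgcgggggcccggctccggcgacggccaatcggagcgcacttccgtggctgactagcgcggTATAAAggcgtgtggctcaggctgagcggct
IRF1: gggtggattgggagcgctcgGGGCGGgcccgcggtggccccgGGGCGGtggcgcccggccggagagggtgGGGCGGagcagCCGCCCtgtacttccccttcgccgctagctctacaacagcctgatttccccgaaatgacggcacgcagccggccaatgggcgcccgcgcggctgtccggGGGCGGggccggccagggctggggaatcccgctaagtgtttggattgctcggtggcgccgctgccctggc
ZFP36: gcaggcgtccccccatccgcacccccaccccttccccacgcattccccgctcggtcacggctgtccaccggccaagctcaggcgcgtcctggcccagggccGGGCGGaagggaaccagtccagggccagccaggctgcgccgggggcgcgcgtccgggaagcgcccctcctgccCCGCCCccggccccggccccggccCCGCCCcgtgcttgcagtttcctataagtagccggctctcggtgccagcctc
The JUNB stretch held 1 TATA box and no GC box, the IRF1 stretch 5 GC boxes and the ZFP36 stretch 3. None of the 3 held TGANTCA. Of the 35116 RefSeq stretches of the same length, 6.57% held TGANTCA, 42.6% the GC box and 10.7% the TATA box. A match describes letters and no more, and its absence says only that these letters are not in this window.

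Most dense groups were small, and a few were very large. The number of peaks in a group had a median of 6 and an upper quartile of 9. At the threshold, 76 groups held exactly 5 peaks (380 peaks), and 169 groups held exactly 4 (676 peaks) and fell just outside it. The peaks of the groups of 5 had a median fold over input of 4.21 and those of the groups of 4 a median of 4.18. At the other end, 56 groups held 10 or more peaks (852 peaks) and 8 groups held 20 or more (247 peaks, 11.7% of the members). The span of a group had a median of 16.3 kb (interquartile range 10.2 to 24.9 kb) and ranged between 2.378 and 122.353 kb, and all spans together covered 5.01 Mb. Within groups the gap between neighbouring peaks had a median of 636 bp, well below the joining distance, and peaks covered a median of 18.9% of the span.

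**Figure D1:**
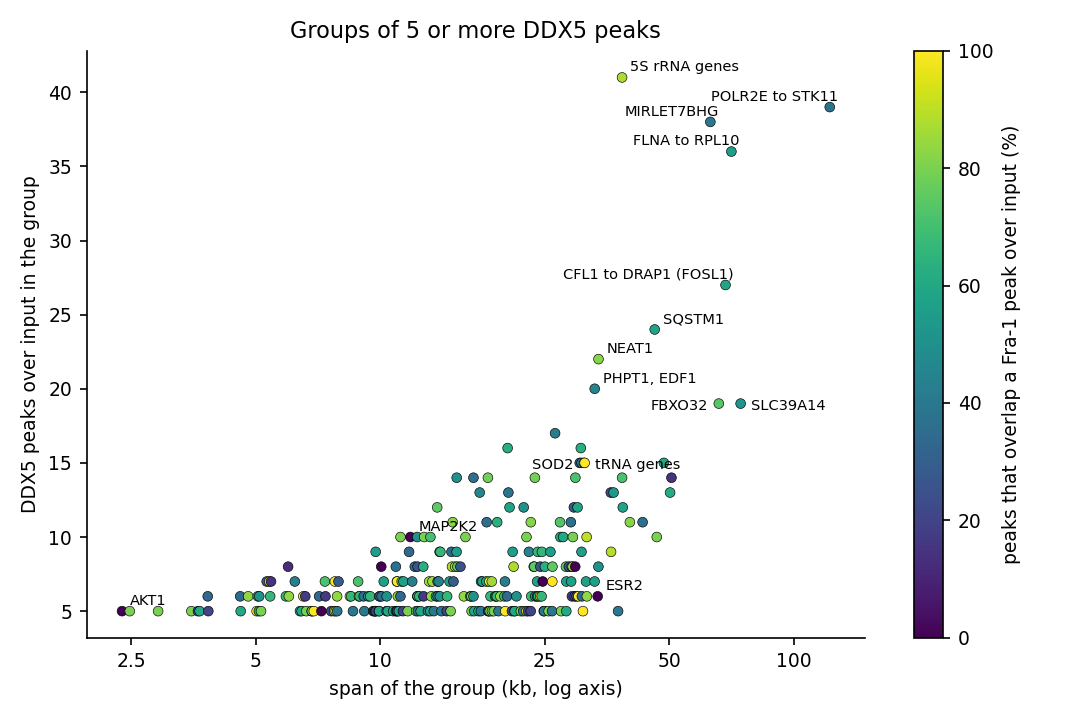
Each point is 1 of the 260 dense groups, placed by its span (x axis, kb, log axis) and its number of DDX5 peaks over input (y axis), with the colour giving the percent of its peaks that overlap a Fra-1 peak over input. The 5S rRNA group holds the most peaks (41), the POLR2E to STK11 group has the longest span (122.353 kb), and groups of similar size range between 0% and 100% Fra-1 overlap.

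Peaks in dense groups were wider and slightly higher over input than single peaks. The authors' fold over input had a median of 4.29 in dense groups (interquartile range 3.69 to 5.19) and 4.08 for single peaks (3.61 to 4.76). The median width was 334.5 bp in dense groups and 269 bp for single peaks. The median pileup, the depth of DDX5 fragments at the summit, was 21 in dense groups and 19 for single peaks. High folds were more frequent: 106 of the 2116 peaks in dense groups reached 8-fold (5.01%), against 55 of the 4979 single peaks (1.10%) and 2.3% of all DDX5 peaks over input. The input level under a peak, computed from fold and pileup, had a median of 3.95 fragments in dense groups and 3.67 at single peaks. All these values come from the contrast that chose the groups.

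The peaks of a group differed in height among themselves. The highest fold was a median of 2.0 times the lowest in the same group (interquartile range 1.63 to 2.64), and the largest such ratio was 5.99. Differences between groups made up 29.0% of the variance of log2 fold, so most of it lay within groups. In 69 groups (26.5%) the highest peak reached 8-fold. The leading peak of each group, the one with the highest −log10 q, had a median fold of 6.43 and a median width of 551 bp, against 4.14 and 318 bp for the other peaks, a difference that the ranking itself favours. The position of the leading summit along the span had a median of 54.3% and an interquartile range of 15.7% to 89.8%. In 80 of the 260 groups it lay between 25% and 75% of the span, and in 180 nearer to an end. The first and last peaks, 520 of the 2116 members, lie at an end because they set the span. The positions of all members were not set beside these counts.

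A pair of the groups described here lay at genes of AP-1 subunits; the other Jun and Fos genes were not looked up, and whether such genes are enriched was not tested. The group at chr11:65618636-65687116 spans CFL1, FOSL1 and DRAP1, where CFL1 encodes the actin-severing protein cofilin and FOSL1 encodes Fra-1. It held 27 DDX5 peaks with folds between 2.76 and 16.5. Fra-1 peaks over input overlapped 16 of the 27, and Fra-1 peaks over IgG 5. Its leading peak, chr11:65657697-65659862, had a pileup of 72 and overlapped Fra-1 at 7.80-fold over input. Which gene of the span this peak falls on was not checked, for lack of an hg19 annotation. The group at JUNB, which encodes a Jun partner of Fra-1, was singled out after its values were seen. Its 8 peaks had pileups of 15, 14, 19, 93, 70, 21, 22 and 21 along chr19:12888441-12917677, so a pair of high peaks stood among 6 low ones. That pair, chr19:12902202-12903438 and chr19:12904166-12905123, had folds over input of 14.1 and 14.4 and were the only members of the group called over IgG, at 2.13-fold and 2.53-fold.

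Of the named groups, 6 lay at genes known to respond to inflammatory signals; whether such genes are enriched was not tested. The group at SOD2, the mitochondrial superoxide dismutase, held 15 peaks over chr6:160091712-160122865, of which 5 reached 8-fold. The highest of them, chr6:160112806-160114988, was 20.4-fold over input and 2.02-fold over IgG, and 14 of the 15 overlapped Fra-1 over input. At CSF1, which encodes the growth factor of macrophages, 10 peaks covered 90.8% of chr1:110453331-110475936, the highest coverage of any dense group. Its outermost peaks were the tallest, with pileups of 69 and 84, while the 8 between them had pileups of 23 to 36. The last, chr1:110469525-110475936, was the widest DDX5 peak over input at 6412 bp and was 19.2-fold, a fold shared by a peak on chromosome 12 at chr12:7052916-7053708. At IRF1, an interferon-response transcription factor, 14 peaks lay in 18.2 kb, with a highest fold of 15.0. That highest IRF1 peak was not called over IgG, and the only member that was had a fold over input of 9.27. The ICAM1 group, named for an adhesion molecule, held 16 peaks up to 17.5-fold, and that of ZFP36, whose product destabilises cytokine mRNAs, 12 peaks up to 11.3-fold. Over IgG, the peak with the highest fold over input was 2.57-fold at CSF1, 2.61-fold at ICAM1 and 3.20-fold at ZFP36. The group at RELB, an NF-kappaB subunit, was the sparsest of all, with 5 peaks over 37.65 kb.

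Histone and noncoding RNA genes formed a further set. At histone genes that include H4C14 (chr1:149803841-149833109), 7 of 10 peaks reached 8-fold and the median fold was 9.17, against 4.28 for the median dense group. The histone group at H2BC13, H3C10 and H4C11 (chr6:27775896-27807502) had a median fold of 5.60, and 9 of its 10 peaks overlapped Fra-1 over input. Over NEAT1, the long noncoding RNA that builds paraspeckles, 22 peaks lay in chr11:65182880-65216640, of which 18 overlapped Fra-1 over input, with a highest fold of 12.2. The group over MIRLET7BHG (chr22:46449744-46512669), whose microRNAs are printed above, was flatter. Its 38 peaks had folds between 2.41 and 7.07 and pileups between 12 and 30, and 15 of them overlapped Fra-1 over input.

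The remaining large or extreme groups lay at genes of many functions. The longest spanned POLR2E, which encodes an RNA polymerase II subunit, to the kinase gene STK11 at chr19:1085771-1208123. It held 39 peaks with folds up to 9.15, of which 15 overlapped Fra-1 over input and 8 Fra-1 over IgG. At chrX:153569665-153640417, over the actin cross-linker gene FLNA, the nuclear envelope gene EMD and the ribosomal gene RPL10, 36 peaks had folds up to 8.42. SQSTM1, an autophagy receptor gene, had 24 peaks up to 11.7-fold. FBXO32, a ubiquitin ligase gene, had 19 peaks up to 5.47-fold, and the zinc transporter gene SLC39A14 had 19 up to 6.07-fold. PHPT1, a histidine phosphatase gene, and EDF1, a transcriptional coactivator gene, had 20 peaks up to 7.15-fold. The group at RTEL1, a DNA helicase gene, and ARFRP1 had 17 peaks up to 8.25-fold. The most closely packed groups were 5 peaks in 2.378 kb at the kinase gene AKT1, 5 in 2.482 kb at TRIO and 5 in 2.907 kb at the transcription factor gene MYC. None of the 5 at AKT1 overlapped a Fra-1 peak over input, against 4 of 5 at TRIO and 4 of 5 at MYC. The group at the proton pump gene ATP6V0B and the galactosyltransferase gene B4GALT2 was sparse, with 5 peaks over 28.2 kb and folds up to 5.23.

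**Figure D2:**
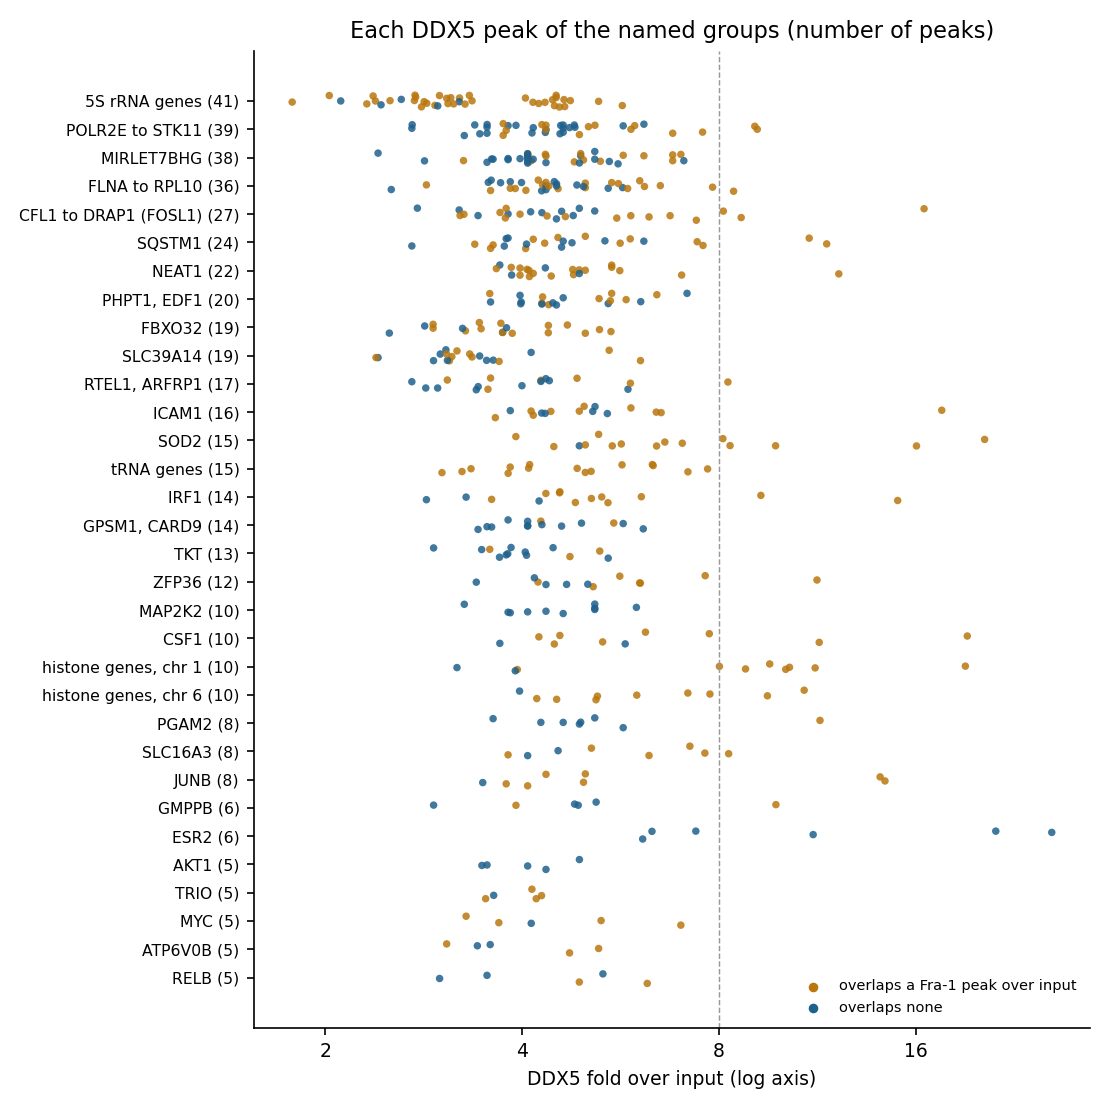
Each point is 1 DDX5 peak of a named group, placed by its authors' fold over input (x axis, log axis), with groups in rows from most to fewest peaks (number in brackets) and the dashed line at 8-fold. Orange points overlap a Fra-1 peak over input and blue points do not; of the 32 groups, 14 have no peak at 8-fold or more, 8 have 1 and 10 have several, and the ESR2 group has no orange point.

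The IgG control kept few DDX5 peaks, and a larger share of those in dense groups. Of the 2116 peaks in dense groups, 28 overlapped a DDX5 peak called over IgG (1.32%, interval 0.881% to 1.91%). Among single peaks it was 10 of 4979 (0.201%, interval 0.0964% to 0.369%), and among all DDX5 peaks over input 0.511%. By group size the share was 0.201% in groups of 1, 0.421% in groups of 2, 0.523% in groups of 3 to 4, 1.27% in groups of 5 to 9 and 1.41% in groups of 10 or more. It did not rise in order across the threshold. Groups of exactly 4 stood at 4 of 676 peaks (0.592%) and groups of exactly 5 at 1 of 380 (0.263%). Both lists use the same DDX5 library, so these shares are not independent of the rule. The 28 peaks lay in 21 groups (8.08% of 260); 22 of them were at least 8-fold over input, and 21 had Fra-1 over input beneath them, while 3 had Fra-1 over IgG. Without the chromosome 14 group described next, chosen for removal after its values were seen, the share in dense groups was 1.04%.

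The group at ESR2, the gene of oestrogen receptor beta, was unlike the others in being called whole over IgG. Its 6 peaks, spread over chr14:64716177-64749783, had pileups of 24, 40, 94, 27, 38 and 77 and folds over input of 6.11, 11.1, 25.8, 6.32, 7.37 and 21.2. The same 6 had folds over IgG of 6.79, 5.84, 15.8, 5.59, 10.2 and 11.1. All 6 peaks of this group, from 1 DDX5 library, were thus well above both controls, with widths of 337 to 586 bp. Whether the 6 peaks fall on exons was not checked, for lack of an hg19 annotation. The tallest, chr14:64727021-64727606, had the highest fold over input of any peak in a dense group. None of the 6 overlapped a Fra-1 peak over input or IgG, although 1 Fra-1 peak over input lay elsewhere in the span, and it was the only group with a DDX5 peak over IgG of which that held. Of the other groups described here, folds over IgG were lower: PGAM2, a gene of the glycolytic enzyme phosphoglycerate mutase, had a peak at 3.74-fold, the chromosome 1 histone genes at 3.70-fold, the RTEL1 group at 3.59-fold, the lactate transporter gene SLC16A3 at 3.47-fold, the sugar nucleotide gene GMPPB at 3.25-fold, ZFP36 at 3.20-fold, IRF1 at 3.04-fold and SQSTM1 at 2.87-fold. In each of these 8 groups the called peak overlapped Fra-1 over input. Of the 28 dense DDX5 peaks called over IgG, 7 overlapped no Fra-1 peak over input, the 6 at ESR2 and 1 in another group not described here.

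Peaks in dense groups overlapped Fra-1 over input about as often as others, somewhat below the level of single peaks. Fra-1 peaks over input overlapped 1207 of the 2116 by at least 1 bp (57.0%, interval 54.9% to 59.2%), against 3130 of 4979 single peaks (62.9%, interval 61.5% to 64.2%) and 61.8% of all DDX5 peaks over input. The share did not follow group size in order: it was 62.9% in groups of 1, 65.4% in groups of 2, 60.2% in groups of 3 to 4, 55.9% in groups of 5 to 9 and 58.8% in groups of 10 or more. The DDX5 and Fra-1 lists share the input library. In both classes the share was higher where the input level was higher. In the lowest tertile of input level it was 40.0% for dense and 47.0% for single peaks, in the middle tertile 59.97% for dense and 66.8% for single peaks, and in the highest 70.5% for dense and 76.9% for single peaks.

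The IgG-controlled Fra-1 list separated dense from single peaks more widely. Of the peaks in dense groups, 157 overlapped a Fra-1 peak over IgG (7.42%, interval 6.34% to 8.62%). Of single peaks, 846 did (16.99%, interval 15.96% to 18.1%), and of all DDX5 peaks over input 13.2%. The share was 16.99% in groups of 1, 11.8% in groups of 2, 11.04% in groups of 3 to 4, 6.49% in groups of 5 to 9 and 8.80% in groups of 10 or more. The 2 libraries of this Fra-1 list, Fra-1 and IgG, are not those that defined the groups. The difference was present in each tertile of input level, of which the highest ran broadly, between 4.46 and 295 fragments. In the lowest tertile the share was 3.45% for dense and 12.1% for single peaks. In the middle it was 7.37% for dense and 16.9% for single peaks, and in the highest 11.2% for dense and 22.7% for single peaks. A difference was also present in each tertile of DDX5 fold, with 7.89% for dense and 18.2% for single peaks in the lowest. In the middle it was 6.23% for dense and 18.3% for single peaks, and in the highest 7.97% for dense and 14.05% for single peaks. Both sets of tertiles come from the contrast that chose the groups. The IgG level was not divided in this way, and the part of these levels and of fold in the difference was not tested.

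**Figure D3:**
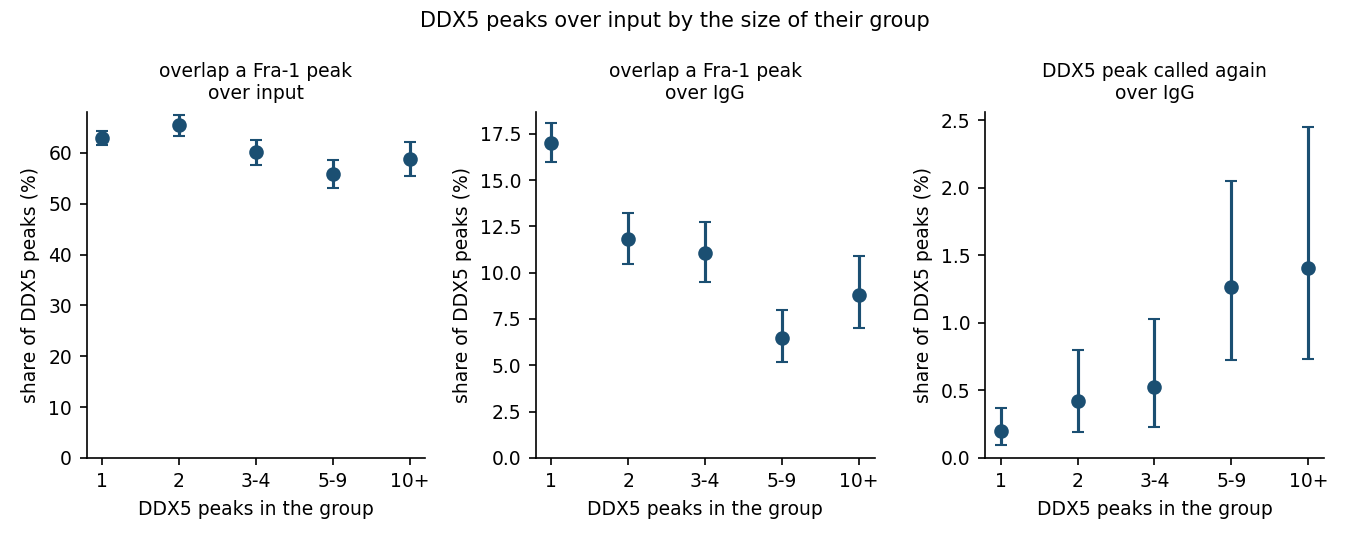
The 3 panels give the share of DDX5 peaks over input (y axis, percent) in groups of 1, 2, 3 to 4, 5 to 9 and 10 or more peaks (x axis) that overlap a Fra-1 peak over input, overlap a Fra-1 peak over IgG, or were called again over IgG. Points are shares and bars 95% Clopper-Pearson intervals; the Fra-1 over IgG share is highest in groups of 1 (16.99%), and the DDX5 over IgG share is highest in groups of 10 or more (1.41%).

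Seen from the Fra-1 lists, a smaller share of the Fra-1 peaks over input was called again over IgG inside dense spans than elsewhere. Dense spans held 1526 Fra-1 peaks over input, of which 220 (14.4%, interval 12.7% to 16.3%) were called again over IgG. For Fra-1 peaks over input that overlapped a single DDX5 peak the share was 27.7% (885 of 3196), for those that overlapped no DDX5 peak 58.6%, and for the whole list 50.6%. Inside dense spans, Fra-1 peaks that overlapped no DDX5 peak stood at 20.6% (65 of 316) and those that overlapped a dense DDX5 peak at 12.8% (155 of 1210). The 232 Fra-1 peaks over IgG inside dense spans had a median IgG level of 11 fragments and a median fold of 5.06. Those that overlapped a single DDX5 peak had a median IgG level of 9.0 and a median fold of 8.54, and the whole list 5.20 and 6.84. The IgG level thus moved with the class of peak, and its part in the difference was not tested.

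By group, 254 of the 260 dense spans (97.7%) held at least 1 Fra-1 peak over input, against 62.9% of single DDX5 peaks. At least 1 Fra-1 peak over IgG lay in 110 dense spans (42.3%), against 16.99% of single DDX5 peaks. By span the order was thus the opposite of that by peak in both Fra-1 lists, over input and over IgG. The spans differ in length: the median was 16.3 kb for dense groups and 269 bp for single peaks. Joining the Fra-1 peaks over input by the same rule gave 658 dense Fra-1 groups. Of the dense DDX5 groups 156 (interval 53.8% to 66.0%) touched such a group, against 3.23% of single DDX5 peaks, and of the dense Fra-1 groups 158 (24.0%) touched a dense DDX5 group. With Fra-1 over IgG, 13 dense DDX5 groups (5.0%) touched 13 of 189 dense Fra-1 groups (6.88%), and 1.10% of single DDX5 peaks touched such a group. In 16 dense groups every DDX5 peak overlapped Fra-1 over input, and in 10 none did. Among groups of 10 or more, the lowest counts were 0 of 10 at MAP2K2, which encodes the kinase MEK2, 2 of 14 at GPSM1 and CARD9, and 3 of 13 at TKT, a transketolase gene. The MAP2K2 span (chr19:4086251-4098092) held no Fra-1 peak of either list, and its 10 DDX5 peaks had folds between 3.26 and 5.98.

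Within dense groups, Fra-1 over input lay under a larger share of leading DDX5 peaks than of other peaks. Of the 260 leading peaks 215 overlapped it (82.7%, interval 77.5% to 87.1%), against 992 of the 1856 other peaks (53.4%, interval 51.1% to 55.7%). With Fra-1 over IgG the shares were 8.08% for leading and 7.33% for other peaks, with overlapping intervals. The leading peaks were ranked on DDX5 over input, which shares its control with the first comparison but not with the second. They were also wider, with a median of 551 bp against 318 bp for the other peaks. Overlap needed only 1 bp, and the part of width was not tested. The first and last peaks of a group overlapped Fra-1 over input in 60.8% and the inner peaks in 55.8%. Where a dense DDX5 peak overlapped Fra-1 over input, the nearest Fra-1 summit lay a median of 101 bp away (interquartile range 39 to 241.5 bp), against 64 bp (27 to 138 bp) for single peaks, which are narrower. The DDX5 fold exceeded the Fra-1 fold in 55.4% of these 1207 dense pairs and in 36.8% of the 3130 single pairs.

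A pair of groups on chromosome 1 lie over tandem genes of small RNAs, and the spacing of their peaks was measured. The group with the most peaks, chr1:228744226-228782717, covers the 5S ribosomal RNA genes, here named by RNA5S1, RNA5S9 and RNA5S17. It held 41 DDX5 peaks with pileups between 33 and 81 and a median fold of 3.11, below the 4.28 of the median dense group. Its median input level was 15.4 fragments, against 3.77 for the median dense group. Along it the DDX5 pileup had 15 local maxima, peaks taller than both neighbours, a median of 2237.5 bp apart (interquartile range 2089 to 2388.75 bp); the 14 spacings ranged between 934 and 6821 bp, and 8 of them lay between 2000 and 2500 bp. The 35 Fra-1 peaks over input in the span had 14 local maxima a median of 2253 bp apart (2214 to 2315 bp). Fra-1 over input overlapped 36 of the 41 DDX5 peaks, and none of the 41 met a peak of either list over IgG.

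The second such group, chr1:161409833-161441085, lies over transfer RNA genes. It had 15 DDX5 peaks with 4 local maxima, of pileup 80 to 99, a median of 7407 bp apart. The 11 lower peaks, of pileup 30 to 63, lay between the maxima and at both ends of the group. Its 18 Fra-1 peaks over input also had 4 local maxima, a median of 7397 bp apart. All 15 DDX5 peaks overlapped Fra-1 over input, and none was called over IgG for either antibody. The median input level was 10.3. Together with a group of 10 peaks at chrX:58567037-58579342, where the median input level was 94.6 and the median fold 1.62, these were the only 3 dense groups with a median input level of 8 or more. How reads that match several gene copies were aligned is not given in the sources used here.

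**Figure D4:**
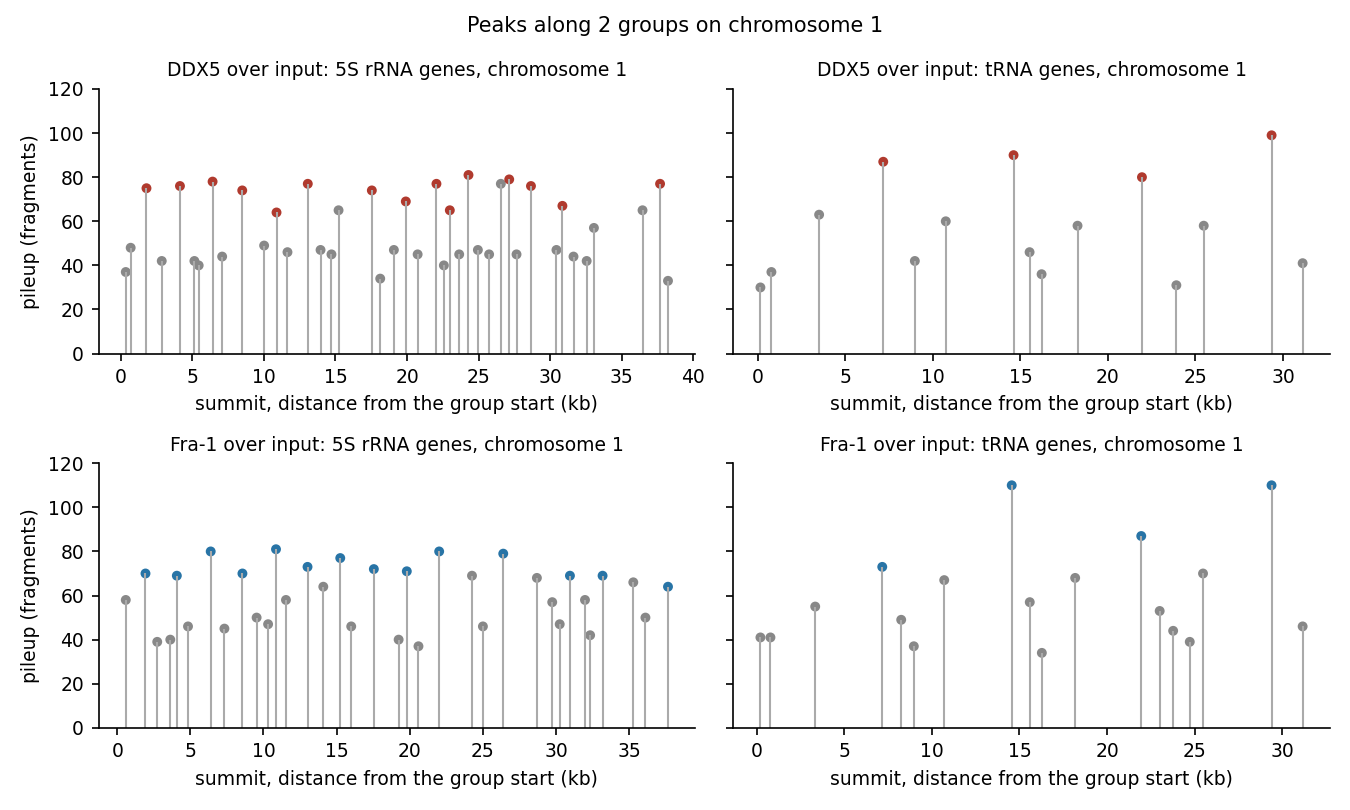
Each stem is 1 peak over input, placed by the distance of its summit from the start of the group (x axis, kb) with its pileup as height (y axis, fragments), for DDX5 (upper panels) and Fra-1 (lower panels) in the 5S rRNA group (left) and the transfer RNA group (right). Coloured heads mark local maxima; in the transfer RNA group all 4 lie at nearly the same distances in DDX5 and Fra-1, about 7.4 kb apart, which is 3 spacings per antibody.

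Dense groups were unevenly spread over the chromosomes. Chromosome 19 held 315 of the 2116 members (14.9%), against 4.92% of single DDX5 peaks. The Fra-1 list over input had 3.59% of its peaks there and the Fra-1 list over IgG 1.78%. Chromosome 17 held 9.64% of the members and 5.60% of single peaks. Chromosome 11 held 7.18% of the members and 3.35% of single peaks, and chromosome 22 held 5.15% of the members and 1.83% of single peaks. Put the other way, 36.9% of the DDX5 peaks on chromosome 22, 36.6% of those on chromosome 19 and 31.7% of those on chromosome 11 were in dense groups, against 19.7% in all. Chromosomes 4 and 18, with 199 and 87 DDX5 peaks, had none in a dense group, and chromosome 2 had 18 of 358. The input level under DDX5 peaks varied between the chromosomes with a high dense share. Its median was 3.11 fragments on chromosome 19, 2.92 on chromosome 22 and 3.43 on chromosome 11. On chromosome 20, where 26.1% of the DDX5 peaks were in dense groups, it was 5.49, and on chromosome 8, where 22.1% were, it was 6.01. For all DDX5 peaks over input it was 3.81, and its part in these shares was not tested.

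**Figure D5:**
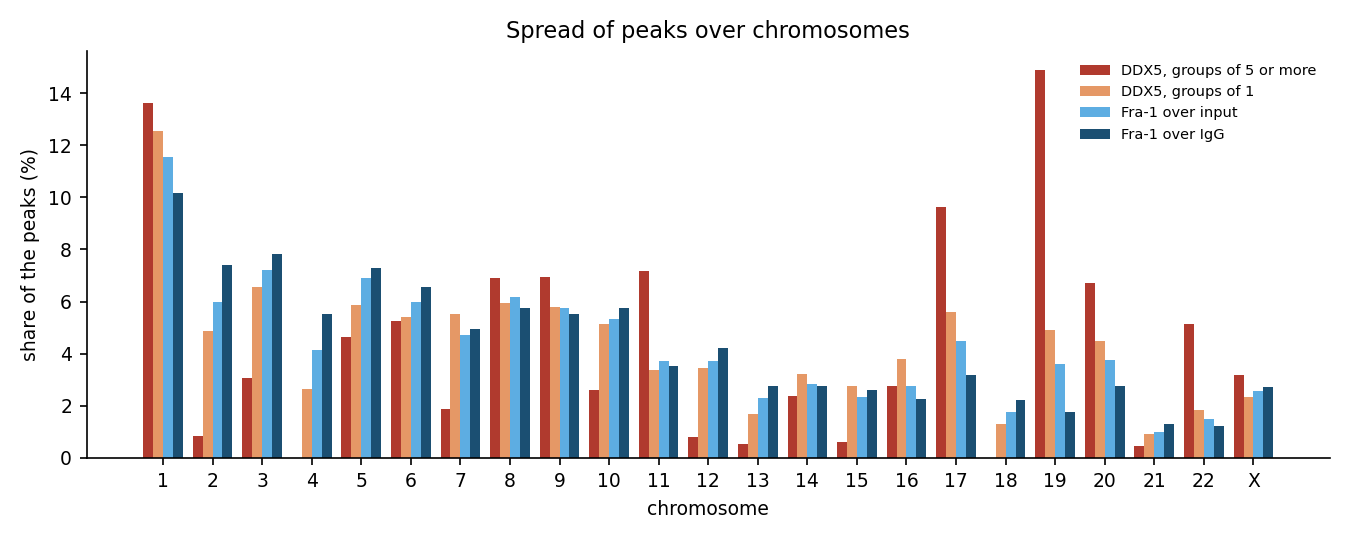
Bars give the share of each list (y axis, percent) on each chromosome (x axis) for DDX5 peaks in groups of 5 or more, DDX5 peaks in groups of 1, Fra-1 peaks over input and Fra-1 peaks over IgG. The dense DDX5 bar on chromosome 19 (14.9%) is the tallest, and chromosomes 4 and 18 have no dense DDX5 bar.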

How the data were processed

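Per the labels, BT549 cells gave 1 library each of DDX5, Fra-1 and IgG ChIP and of input DNA. CASAVA 1.8, Bowtie 0.12.9, HOMER and the build hg19 are named by the submitters' processing notes; which program called the peaks, and how, is not given in the sources used here. Per the file headers, the deposited lists give each peak's position, its signal as a pileup, and its fold enrichment, a ratio to the control. The authors' −log10 p and −log10 q have lost their column names to a spreadsheet error and were recognised from the values. Pileups in the lists over IgG were scaled by the authors to the depth of the IgG library.

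From these, peaks on chromosomes 1 to 22 and X were joined into groups. The level of the control under each peak follows from the authors' arithmetic, in which the fold is pileup plus 1 over control plus 1; over input it cannot fall below the caller's background of 2.68 fragments, so low levels are censored there. Lists were compared by an overlap of at least 1 bp. Tertiles of input level and fold were set over all DDX5 peaks over input. Named groups were the 12 with the most peaks, the 3 most and 3 least densely packed, the 3 with the highest fold, the 3 with the highest and the 3 with the lowest Fra-1 share among groups of 10 or more, and up to 10 with a DDX5 peak over IgG; some of these are not reported here. The members, groupings and lists were chosen with earlier results of these data known. The code was checked on simulated data and run with numpy 2.4.6, pandas 2.3.3 and scipy 1.17.1 under Python 3.11.15. No hg19 annotation or genome was used, so planned shares at start sites, gene classes, GC content and motifs of the peaks were not analysed here. Absolute depth is unknown, and no p-value is given without replicates.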

Additional observations from a re-analysis of the deposited data

How the results depend on the processing

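The alternatives were another joining distance (5000 or 25000 bp), at least 10 peaks in a group, only DDX5 peaks at or above the median −log10 q, leaving out chromosome 19 or the 3 groups with the most peaks, other overlap rules, and each group counted equally. After the data were seen, leaving out the 3 groups of high input level or the chromosome 14 group was added. In all 10 alternatives of each share, dense groups stayed below single peaks in overlap with Fra-1 over input and over IgG, and above them in the share called again over IgG, and 32 of 44 values lay inside the 95% interval around the value given above (for counts of peaks, within 1.5 times it). The number of peaks in dense groups was 1356 with 5000 bp, 852 with at least 10 peaks and 730 with the higher −log10 q. With that −log10 q, overlap with Fra-1 over input was 76.0% in dense groups and 78.8% for single peaks, the share called over IgG 2.88% in dense groups and 0.475% for single peaks, and the difference in median fold 0.155, against 0.209. With centres within 100 bp, the overlap with Fra-1 over input was 27.9% in dense groups and 41.5% for single peaks, with Fra-1 over IgG 3.78% in dense groups and 11.7% for single peaks, and with DDX5 over IgG 0.756% in dense groups and 0.141% for single peaks. With at least 50% of either peak, Fra-1 over input stood at 51.1% in dense groups and 59.8% for single peaks, and Fra-1 over IgG at 6.14% in dense groups and 16.2% for single peaks. In groups of 10 or more, Fra-1 over IgG stood at 8.80%. The causes of these moves were not tested. The unknown depth limits every list, no library was repeated, and planned analyses that need an hg19 annotation were not run.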
